A study of Mus musculus with 16 samples.

Results

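The comparison described here is that of female with male liver in mice without Cyp2b genes. Its members were the 8 Cyp2b-null libraries of a series of 16, chosen by the genotype and sex in the library titles: females 1, 3, 4 and 5 and males 1, 2, 3 and 4. All mice were C57BL/6, were fed a diet with 60% fat for 16 weeks and carried the Cyp2b-null genotype, in which mouse Cyp2b genes are deleted. The sources used here do not say which of them are deleted or how old the mice were. The other 8 libraries came from hCYP2B6-Tg mice of the same strain on the same diet, which carry the human CYP2B6 gene, 4 of each sex. Neither the sequence that drives the transgene nor its founders are given in the sources read here. Liver RNA was extracted with Trizol, and the NEB Next Ultra kit was used for library preparation. The question of the series is the role of the human enzyme in obesity brought on by diet, and the sex comparison within Cyp2b-null livers is one that its design contains. No group fed a standard diet was analysed here, so the values describe the sexes on the fat diet and give no effect of the diet.

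The liver is among the most sexually dimorphic organs of the mouse outside the reproductive tract. Growth hormone reaches it in separated pulses in males and more evenly in females, and this pattern, relayed through the kinase JAK2 and the transcription factor STAT5B, sets which P450 enzymes, sulfotransferases, transporters and secreted proteins hepatocytes make. CUX2, which is largely restricted to female liver, and BCL6, which is more abundant in male liver, are factors known to act beside STAT5B. Many of the enzymes concerned act on steroids, bile acids and drugs.

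The Cyp2b-null libraries held 5584587 to 9672708 counts and 17756 to 19181 detected genes, and ribosomal RNA rows took 2.76% to 9.31% of their counts. Levels are given in CPM, counts scaled to library size, always in the order females 1, 3, 4 and 5 and then males 1, 2, 3 and 4. Xist was at 650 to 926 CPM in the females and at most 0.271 CPM in the males, and Ddx3y at 82.9 to 100.7 CPM in the males and at most 0.176 CPM in the females, so all 8 libraries matched their labelled sex. Cyp2b10 had 2 counts in all 4 females together and 0 in the males, Cyp2b19 had 0 and 1, Cyp2b23 had 0 and 0, Cyp2b9 had 16 and 11, and Cyp2b13 had 4 and 0. These 5 rows were below the filter on low counts. By an exact two-sided permutation test Cyp2b9 did not differ between the sexes (p = 0.543, where 4 against 4 libraries cannot go below 0.0286). The other rows had counts in too few libraries for that test to pass, so it cannot decide for them. The first principal component of the 8 libraries carried 48.8% of the variance and separated the sexes, and females 1 and 3 stood at opposite ends of the second (11.9%). The liver identity of the samples was checked with 10 hepatocyte markers, whose summed level was 132100 to 157900 CPM in females and 119600 to 125000 CPM in males, with no overlap. No marker of the hepatocyte list was at 0. In the test given below, 2 of the 10 markers, Trf and Alb, were higher in females and none in males. The median log2 ratio of female over male of the 10 was 0.079, with 7 estimates above 0 and 3 below, so the separated sum is not shared by all markers. In whole liver, fewer cells of a type and less RNA per cell cannot be told apart. The labels do not say outright that each library is a separate animal, so a p-value here reflects the spread among libraries, part of which may be technical.

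Of 13470 genes tested 1000 differed between the sexes in Cyp2b-null livers (7.42%), 38 of them on the X or Y chromosome and 16 on no assigned chromosome. Among 12739 autosomal genes tested, 946 differed between the sexes in Cyp2b-null livers (7.43%; edgeR quasi-likelihood test, Benjamini-Hochberg adjusted p under 0.05). Of these, 447 were higher in females (3.51%) and 499 higher in males (3.92%). Most differences were small: the median absolute log2 fold change of the 946 was 0.655, while 148 genes were at least 2-fold higher in females and 167 in males, and 40 and 41 were at least 8-fold higher. In 838 of the 946 the 4 libraries of one sex lay above all 4 of the other, as did 1572 of all 12739 genes (12.3%). Chromosome 19, which carries the Cyp2c cluster, had the largest called share of the autosomes (60 of 498 genes) and chromosome 17 the smallest (29 of 621). Below, a log2 ratio is always female over male with its standard error, so a negative value is higher in males. Genes are counted by lists, and a list is read against these shares and against the median log2 ratio of all genes tested, 0.0041. The lists of metabolism held 592 tested autosomal genes, with 85 higher in females and 108 in males (32.6% called). Those of immunity held 281, with 35 and 16 (18.2%), and those of signalling held 374, with 32 and 17 (13.1%). Without females 1 and 3 and male 4, which stood apart on the second component or in markers of other cells, the counts were 52 and 57, 12 and 11, and 19 and 9. Where a call or count is given below without several named libraries, each was left out alone, except for the set of females 1 and 3 and male 4, called the 3 outlying libraries below.

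**Figure D1:**
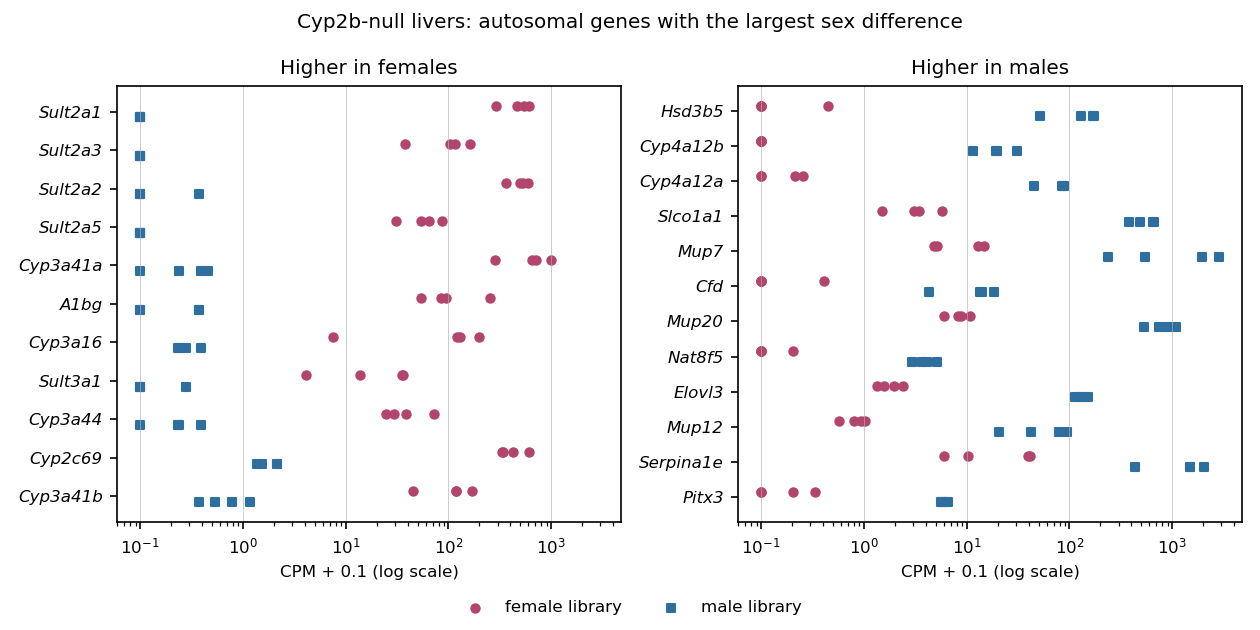
Level in each Cyp2b-null library of 11 of the 12 autosomal genes with the largest log2 ratio in favour of females and of the 12 in favour of males (x axis, CPM + 0.1 on a log scale; circles, the 4 female libraries; squares, the 4 male libraries). Genes were chosen only where the libraries of one sex lie above all libraries of the other. That separation in the 23 genes shown follows from the choice.

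The largest differences in favour of females were in the cytosolic sulfotransferases of the Sult2a family, which add sulfate to steroids and bile acids, at chromosome 7 (GRCm38.p6, 13623967 to 14493023). The levels were 544, 465, 609 and 287 CPM in females and 0, 0, 0 and 0 CPM in males for Sult2a1, and no read of it was counted in any male. Over the group, Sult2a1 was at least 4206-fold higher in females, taking 3 counts as the limit in males, Sult2a3 at least 925-fold and Sult2a5 at least 521-fold. Sult2a3 was at 116, 104, 163 and 37.5 CPM and Sult2a5 at 64.3, 53.95, 85.5 and 30.8 CPM in the females, with female 5 the lowest for all 3 genes. Sult2a2 had 2 counts in the males against 14852 in the females, a ratio of pooled counts of 6633 (95% counting interval 1836 to 54780). Their adjusted p ran from 4.73e-13 (Sult2a2) to 0.00305 (Sult2a3), but without females 1 and 3 and male 4 that of Sult2a3 was 0.0685. The call of Sult2a3 was also lost in a fit of the Cyp2b-null libraries alone. Of the 6 members of the family tested, 4 were higher in females and 1, Sult2a8, higher in males. Reads can be shared among these close copies, so the split within the family is uncertain.

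The start regions of the genes with the largest differences are shown because STAT5B and CUX2, named above, bind DNA by known core motifs. RefSeq windows from 250 bases before to 50 after the start (GRCm38.p6) existed for 9 of the 12 largest female genes and 7 of the 12 largest male genes, and the first 3 of each are printed 5′ to 3′ on the gene's strand, with matches to a motif in capitals. Motifs searched on both strands were TTCNNNGAA (STAT), ATTGAT (HNF6) and ATCGAT (CUX). HNF6 is not among the factors named above, and no motif of BCL6 was searched. 
Sult2a3, chr7:14122999-14123298, minus strand: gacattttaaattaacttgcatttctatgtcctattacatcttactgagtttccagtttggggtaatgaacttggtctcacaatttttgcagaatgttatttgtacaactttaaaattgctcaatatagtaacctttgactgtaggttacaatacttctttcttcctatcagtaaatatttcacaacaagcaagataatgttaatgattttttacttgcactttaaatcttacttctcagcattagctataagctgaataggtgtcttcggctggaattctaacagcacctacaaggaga
Sult2a5, chr7:13623717-13624016, plus strand: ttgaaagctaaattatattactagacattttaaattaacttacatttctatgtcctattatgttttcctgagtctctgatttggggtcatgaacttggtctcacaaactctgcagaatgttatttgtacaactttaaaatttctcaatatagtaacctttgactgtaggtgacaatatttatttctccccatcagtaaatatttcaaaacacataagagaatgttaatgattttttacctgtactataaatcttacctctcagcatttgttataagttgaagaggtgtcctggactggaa
Cyp3a41a, chr5:145720087-145720386, minus strand: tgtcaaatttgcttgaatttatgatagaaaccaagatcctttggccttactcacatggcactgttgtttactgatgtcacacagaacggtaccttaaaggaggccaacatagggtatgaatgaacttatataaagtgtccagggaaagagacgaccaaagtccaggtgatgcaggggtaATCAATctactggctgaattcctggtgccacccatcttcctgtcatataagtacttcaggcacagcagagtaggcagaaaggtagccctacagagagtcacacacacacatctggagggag
Hsd3b5, chr3:98645485-98645784, minus strand: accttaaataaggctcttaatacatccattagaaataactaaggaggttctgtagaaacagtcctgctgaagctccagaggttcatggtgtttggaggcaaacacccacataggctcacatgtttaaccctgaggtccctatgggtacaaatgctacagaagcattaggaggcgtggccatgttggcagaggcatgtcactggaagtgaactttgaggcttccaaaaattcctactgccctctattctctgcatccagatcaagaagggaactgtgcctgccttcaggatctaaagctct
Slco1a1, chr6:141946913-141947212, minus strand: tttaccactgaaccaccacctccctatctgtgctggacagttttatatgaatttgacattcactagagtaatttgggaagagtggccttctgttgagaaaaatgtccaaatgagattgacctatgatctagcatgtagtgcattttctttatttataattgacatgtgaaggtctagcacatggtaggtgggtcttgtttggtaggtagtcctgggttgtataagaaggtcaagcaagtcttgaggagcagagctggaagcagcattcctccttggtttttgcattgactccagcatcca
Mup7, chr4:60070426-60070725, minus strand: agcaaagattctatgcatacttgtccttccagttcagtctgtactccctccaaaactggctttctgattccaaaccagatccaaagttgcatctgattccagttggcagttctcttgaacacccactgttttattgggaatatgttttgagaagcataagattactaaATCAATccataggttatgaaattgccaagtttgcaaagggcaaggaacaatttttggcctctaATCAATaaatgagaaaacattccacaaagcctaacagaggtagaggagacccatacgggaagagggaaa

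The windows of Sult2a3 and Sult2a5 were 75.9% identical in a global alignment, against 48.6% to 52.7% for the other 14 pairs. ATTGAT, on the opposite strand, occurred once in the window of Cyp3a41a and at 2 places in that of Mup7. Over genes called higher in females, 10.5% of 324 windows held ATTGAT, as did 9.46% of 391 windows of genes higher in males and 4.56% of the 9582 windows of autosomal genes tested. For TTCNNNGAA the shares were 5.86%, 5.88% and 7.07%, and for ATCGAT 0.617%, 1.53% and 0.772%. Among all 27025 RefSeq windows the shares were 8.47% (TTCNNNGAA), 7.76% (ATTGAT) and 0.881% (ATCGAT). Of the 9 largest female genes with a window, 7 held ATTGAT and 2 held TTCNNNGAA, and of the 7 largest male genes 2 and 0 did. These are matches of letters, described with no test. Several of the largest female genes belong to the Sult2a and Cyp3a families, so windows among the 9 may be related copies and not separate occurrences.

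The sulfotransferase list, which holds the Sult2a genes, had 9 of its 15 tested members higher in females and 1, Sult2a8, higher in males, with a median log2 ratio of 0.99. Outside Sult2a, 5 members were called, all higher in females: Papss2, Sult1a1, Sult3a1 and, named after their values were seen, Sult1d1 and Sult1e1. Papss2, which makes the sulfate donor of all these enzymes, was at 309, 485, 445 and 406 CPM in females and 211, 224, 178 and 212 CPM in males. Its groups did not overlap (log2 ratio 0.995 ± 0.13, adjusted p = 1.02e-05). Sult1a1, an enzyme for phenols, was also higher in females (506 ± 42.2 CPM in females and 287 ± 32.7 CPM in males, log2 ratio 0.82 ± 0.099, adjusted p = 2.21e-06). Sult3a1 was at 4.04, 35.2, 13.8 and 35.8 CPM in females and had 1 count in all males, a pooled ratio of 637 (95% counting interval 114 to 25190). It was unevenly expressed among the females, and its call was lost without male 1 (adjusted p = 0.0780). Without the 3 outlying libraries the adjusted p of Sult3a1 was 0.0607. Its call was also lost with limma voom in place of edgeR, with or without quality weights.

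Cytochrome P450 oxidases were called in both directions. Calls of the Cyp3a, Cyp2d and Cyp4a families each went to a single sex, and those of Cyp2c went both ways. On chromosome 5, 6 of 8 tested Cyp3a genes, whose enzymes oxidise steroids and drugs, were higher in females and none in males. Cyp3a41a was at 992, 652, 709.8 and 284 CPM in females and had 5 counts in the males together (log2 ratio 11.68 ± 0.95, adjusted p = 3.92e-06). Cyp3a16 was at 199, 131, 120.4 and 7.502 CPM in the females, where female 5 was far below the other 3, and below 0.3 CPM in each male (log2 ratio 9.14 ± 1.44, adjusted p = 0.00134). Cyp3a44 and Cyp3a41b had log2 ratios of 7.96 ± 0.84 and 7.53 ± 0.91. With limma voom in place of edgeR the calls of Cyp3a41a, Cyp3a16 and Cyp3a41b were lost. Those of Cyp3a16 and Cyp3a41b were also lost with quality weights. On chromosome 19, 7 of 13 Cyp2c genes were higher in females and 4 in males. Cyp2c69 was at 609.5, 427, 333 and 340 CPM in females and 1.26, 2.06, 2.03 and 1.44 CPM in males, and Cyp2c40 at 429.5, 408, 276 and 364 and 12.6, 11.97, 15.3 and 14.1 CPM. The spread within each sex was narrow for Cyp2c40 (log2 ratio 4.77 ± 0.16, adjusted p = 5.28e-15). Cyp2c68 differed less (564 ± 60.98 CPM in females and 238 ± 24.8 CPM in males, log2 ratio 1.25 ± 0.092).

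The male side of the P450 family was led by Cyp4a12b and Cyp4a12a on chromosome 4, omega-hydroxylases of fatty acids. Cyp4a12b had 0 counts in the females and 11.4, 30.8, 19.5 and 18.99 CPM in the males, at least 210-fold higher over the group. Cyp4a12a had 2 counts in the females and was at 83.6, 86.1, 44.9 and 88.9 CPM in the males, with male 3 the lowest, a pooled ratio of 1141 (95% counting interval 315.5 to 9430). Cyp2d9, a testosterone hydroxylase on chromosome 15, was at 15.3, 19.2, 14.7 and 30.4 CPM in females and 811, 1101, 910.3 and 1038 CPM in males (log2 ratio -5.58 ± 0.32, adjusted p = 1.05e-07). Only 2 of 8 tested Cyp2d genes passed the test, both higher in males. Cyp2u1, another fatty acid hydroxylase, was at 1.58, 1.56, 1.96 and 3.65 CPM in females and 20.8, 17.8, 22.6 and 17.6 CPM in males (log2 ratio -3.09 ± 0.24). Of the 34 tested Cyp2 genes outside Cyp2b, 11 were higher in females and 9 in males, with a median log2 ratio of -0.010. Of 23 Cyp1, Cyp3 and Cyp4 genes, 6 and 4 were, with a median of 0.107. Members of the Cyp2c, Cyp3a41 and Cyp4a12 groups are near-identical in parts, so single members are uncertain. Calls higher in males were 5 in the Cyp2 list and 2 in the other without the 3 outlying libraries.

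Among flavin monooxygenases, aldehyde oxidases and carboxylesterases, 6 of 20 tested genes were higher in females and 7 in males (median log2 ratio -0.094). Fmo1, a flavin monooxygenase, was higher in females, with 326 ± 22.2 CPM in females and 198 ± 15.5 CPM in males (log2 ratio 0.72 ± 0.082). Aox3, an aldehyde oxidase, went the other way, with 289, 288, 314 and 225 CPM in females and 691, 694, 809 and 756 CPM in males (log2 ratio -1.40 ± 0.10, adjusted p = 6.75e-10). Ces1c, a carboxylesterase secreted into plasma, was higher in females (4059 ± 242 CPM in females and 2618 ± 103 CPM in males, log2 ratio 0.63 ± 0.072). The 7 calls higher in males were 4 without the 3 outlying libraries.

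Glucuronosyltransferases and glutathione transferases, which conjugate drugs, bilirubin and steroids, had log2 ratios from -1.14 to 1.24. Of 35 tested genes 5 were higher in females and 11 in males, with a median of -0.057. Without male 3 the number higher in females was 3, and without females 1 and 3 and male 4 the counts were 2 and 4. Mgst1, a microsomal glutathione transferase, was at 1690, 1976, 1915 and 2125 CPM in females and 3166, 3386, 3500 and 3422 CPM in males (log2 ratio -0.81 ± 0.083, adjusted p = 1.94e-07). Ugt2b1 and Ugt2b35 were higher in males, with log2 ratios of -0.80 ± 0.10 and -0.75 ± 0.0999, and Ugt1a9 higher in females (1.02 ± 0.17).

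Steroid dehydrogenases and reductases were called in 15 of 27 tested genes, 5 higher in females and 10 in males (median log2 ratio -0.128). Without any 1 of females 3 and 4 and males 3 and 4 the number higher in females was 3. Hsd3b5, a steroid dehydrogenase known from male mouse liver, had 2 counts in the females and was at 51.8, 171, 128 and 168 CPM in the males, a pooled ratio of 2044 (95% counting interval 565 to 16880). Male 1 was the lowest, and without females 1 and 3 and male 4 the adjusted p was 0.0530. The call of Hsd3b5 was also lost with limma voom, with or without quality weights. Srd5a1, the reductase that makes dihydrotestosterone from testosterone, was at 23.2, 20.9, 23.6 and 30.01 CPM in females and 73.7, 65.2, 70.9 and 73.2 CPM in males (log2 ratio -1.52 ± 0.14, adjusted p = 1.24e-07). Cyp17a1, which makes androgen precursors, was at 189, 252, 266 and 313 CPM in females and 34.1, 41.7, 12.04 and 27.5 CPM in males (log2 ratio 3.15 ± 0.43, adjusted p = 4.89e-04). Hsd17b12, which also serves fatty acid elongation, and Hsd3b2 were higher in males, with log2 ratios of -0.66 ± 0.088 and -1.02 ± 0.16. Leaving out the 3 outlying libraries gave 2 and 4 calls.

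Bile acid genes were called in 18 of 38 tested members, 7 higher in females and 11 in males, with a median log2 ratio of -0.160. Slco1a1, an uptake transporter for organic anions and bile acids, was at 3.34, 2.96, 1.38 and 5.63 CPM in females and 380.3, 665, 487 and 657 CPM in males. The groups were far apart (log2 ratio -7.33 ± 0.54, adjusted p = 1.60e-06). Cyp7b1, the oxysterol hydroxylase of the alternative bile acid pathway, was at 12.99, 19.8, 23.3 and 21.6 CPM in females and 87.03, 119, 118 and 135 CPM in males (log2 ratio -2.55 ± 0.19, adjusted p = 1.94e-07). Cyp8b1, which makes the precursor of cholic acid, was called higher in males (log2 ratio -1.59 ± 0.29, adjusted p = 0.00441), and Cyp7a1, the rate-limiting enzyme of the classical pathway, did not pass (-1.03 ± 0.31, adjusted p = 0.0672); both were chosen after their values were seen. Scp2, the sterol carrier whose long form is the thiolase that shortens the bile acid side chain, was at 1828, 1457, 1511 and 1558 CPM in females and 3361, 3473, 3924 and 3752 CPM in males (log2 ratio -1.19 ± 0.082). Abcg2, an exporter of the canalicular membrane, was likewise higher in males (33.4 ± 4.42 CPM in females and 92.2 ± 8.34 CPM in males, log2 ratio -1.46 ± 0.12). The organic anion transporters Slc22a27 to Slc22a30 lie side by side on chromosome 19, where Slc22a27 and Slc22a29 were higher in females and Slc22a28 and Slc22a30 in males. Slc22a28 was at 1.93, 2.18, 1.84 and 1.67 CPM in females and 15.5, 16.1, 15.4 and 21.1 CPM in males (log2 ratio -3.17 ± 0.22). The 11 calls higher in males were 7 without the 3 outlying libraries.

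**Figure D2:**
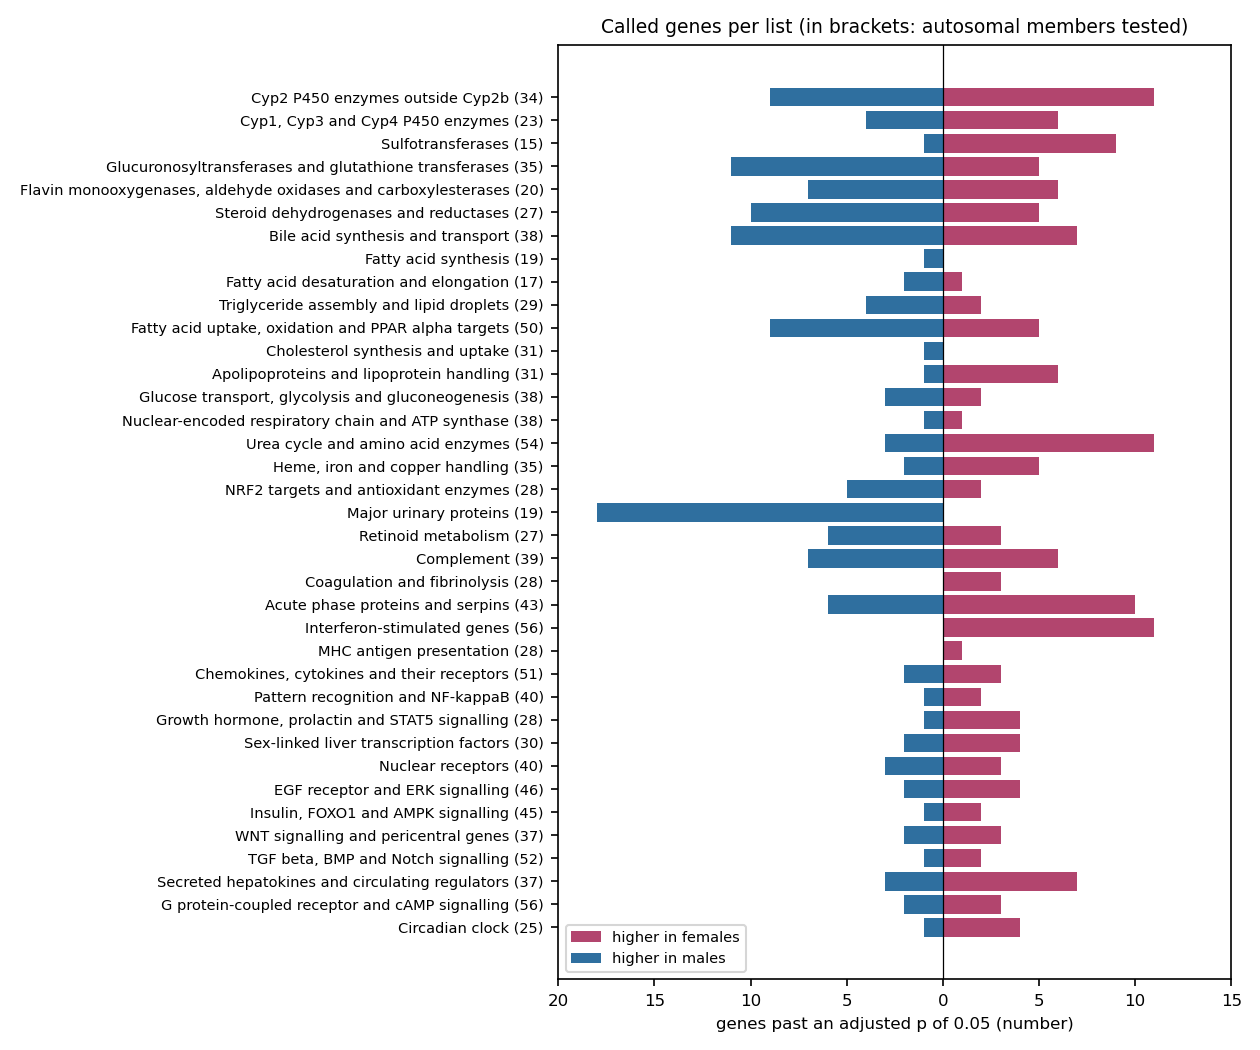
Number of autosomal genes past an adjusted p of 0.05 in each list (x axis; to the right, higher in females; to the left, higher in males), with the number tested in brackets. Sulfotransferases lean to females (9 against 1), major urinary proteins to males (18 against 0) and interferon-stimulated genes to females (11 against 0).

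Core lipid synthesis had few calls on the fat diet. Of 19 tested genes of fatty acid synthesis 1 passed the test, Tkfc, the fructose pathway's triokinase (log2 ratio -0.35 ± 0.11), and of 31 genes of cholesterol synthesis and uptake 1, Stard4, a sterol carrier (-0.43 ± 0.10). Those shares, 5.26% and 3.23%, were below the 7.43% of all autosomal genes. The groups of both genes overlapped. The call of Tkfc was lost without any 1 of females 1 and 3 and males 1, 2 and 3 (adjusted p 0.104 to 0.153). In cholesterol synthesis, calls higher in males numbered 4 without female 5 and 2 without male 3, and 1 gene was called higher in females without female 1. Medians were 0.0020 and -0.114. Fasn, fatty acid synthase, which was chosen after its values were seen, was at 543, 783, 815 and 1589 CPM in females and 1027, 908, 541 and 479 CPM in males, a spread within each sex wider than the difference between them (log2 ratio 0.34 ± 0.45, adjusted p = 0.754). Neither list had a call without the 3 outlying libraries (adjusted p of Tkfc 0.374 and of Stard4 0.0829).

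Elongation and storage of fatty acids held larger single differences. Elovl3, which elongates saturated and monounsaturated fatty acids, was at 2.28, 1.25, 1.84 and 1.46 CPM in females and 114, 135, 123 and 153 CPM in males (log2 ratio -6.27 ± 0.33, adjusted p = 1.52e-08). The remaining calls among 17 desaturases and elongases were Fads6 (-0.43 ± 0.11, lost without male 2, adjusted p = 0.0572) and Fads1 (0.40 ± 0.12), a desaturase of polyunsaturated fatty acids. Fads1 lost its call without any 1 library other than female 1 (adjusted p 0.0615 to 0.122). Fitm1, a protein of the endoplasmic reticulum that helps lipid droplets form, was at 7.02, 6.86, 10.6 and 15 CPM in females and 62.1, 70.03, 50.6 and 55.5 CPM in males (log2 ratio -2.55 ± 0.20, adjusted p = 1.48e-07). Its relative Fitm2 and the droplet fusion protein Cidec were also higher in males, with log2 ratios of -0.94 ± 0.15 and -2.10 ± 0.34. Tm6sf2, which loads lipid onto very-low-density lipoprotein, was at 52.7, 57.4, 50.9 and 54.3 CPM in females and 35.8, 23.9, 25.97 and 19.1 CPM in males (log2 ratio 1.05 ± 0.13, adjusted p = 2.28e-06). Among 29 genes of triglyceride assembly and droplets 2 were higher in females and 4 in males, with a median of -0.107. Those 2 were 1 without male 3, male 4 or the 3 outlying libraries. Without the latter the adjusted p was 0.106 for Fads6 and 0.146 for Fads1.

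Of 50 genes of fatty acid uptake, oxidation and the PPAR alpha response, 5 were higher in females and 9 in males, and 32 of the 50 estimates were below 0 (median -0.127). Acaa1b, a peroxisomal thiolase, was at 808, 825, 861 and 714 CPM in females and 1446, 1332, 1502 and 1273 CPM in males (log2 ratio -0.79 ± 0.099, adjusted p = 4.07e-06). Abcd2, a peroxisomal importer of very long fatty acids, went the other way, with 174, 156, 135 and 127 CPM in females and 72.6, 66.3, 54.9 and 45.2 CPM in males (log2 ratio 1.31 ± 0.14, adjusted p = 2.69e-06). Vnn3, a pantetheinase, was higher in females (0.72 ± 0.080) and Acsm5, a medium-chain acyl-CoA synthetase, in males (-0.58 ± 0.080). Calls higher in females numbered 2 without female 3 or male 2 and 3 without female 4, male 3 or male 4, and those higher in males numbered 5 without male 4. The 3 outlying libraries left out, 2 and 5 were called.

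Lipoprotein genes had 6 of 31 members higher in females and 1 in males, with a median of -0.023. Vldlr, the receptor for very-low-density lipoprotein, was at 32.7, 34.3, 34.9 and 30.5 CPM in females and 13.5, 8.805, 7.305 and 8.78 CPM in males (log2 ratio 1.80 ± 0.23, adjusted p = 4.74e-05). Sort1, a sorting receptor of apolipoprotein B, was at 6.497, 7.33, 6.33 and 9.59 CPM in females and 13.5, 19.8, 19.9 and 20.1 CPM in males (log2 ratio -1.29 ± 0.23, adjusted p = 5.60e-04). Apoc3, which slows triglyceride clearance, was modestly higher in females (1556 ± 131 CPM in females and 1223 ± 43.7 CPM in males, log2 ratio 0.35 ± 0.076). Lipc, hepatic lipase, had a log2 ratio of 0.53 ± 0.13, and lost its call without female 3 or male 3 (adjusted p 0.0617 at most). The 6 calls higher in females were 2 without female 3, and 1 without females 1 and 3 and male 4. In that fit no gene was called higher in males, and the adjusted p was 0.0575 for Sort1, 0.0521 for Apoc3 and 0.101 for Lipc.

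Genes of glucose metabolism and the respiratory chain had few calls. Of 38 genes of glucose transport, glycolysis and gluconeogenesis 2 were higher in females and 3 in males (median 0.028), and of 38 nuclear genes of the respiratory chain and ATP synthase 1 and 1 (median -0.024). The called shares were 13.2% and 5.26%, against 7.43% of all autosomal genes. Mpc2, a subunit of the mitochondrial pyruvate carrier, was at 238, 264, 228 and 254 CPM in females and 168, 194, 180.2 and 176 CPM in males (log2 ratio 0.45 ± 0.080, adjusted p = 4.07e-04). Gbe1, the glycogen branching enzyme, was higher in males (log2 ratio -0.36 ± 0.077, adjusted p = 0.00317). The calls of Aldoa, Pcx, Atp5o and Cox7a2 had log2 ratios of -0.35 ± 0.0996, -0.31 ± 0.089, 0.40 ± 0.11 and -0.36 ± 0.11. Each was lost without single libraries: Aldoa without females 3 and 4 or males 1, 3 and 4, Pcx without females 3 and 5 or males 1, 2 and 3, Atp5o without females 1 and 5 or any male, and Cox7a2 without females 1 and 4 or males 3 and 4. The adjusted p then reached 0.124, 0.114, 0.0755 and 0.179. The groups of Cox7a2 also overlapped. Glucose calls higher in females were 1 without any 1 of females 3 and 4 and males 1, 3 and 4, and those higher in males 1 without male 1 or male 3. Respiratory chain calls higher in females numbered 2 without female 4. Without the 3 outlying libraries no glucose gene was called higher in males and no respiratory chain gene in either direction, and the adjusted p of Gbe1 was 0.104.

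Of 54 tested amino acid enzymes 11 were higher in females and 3 in males, with a median of 0.148. Agxt, which detoxifies glyoxylate, was at 362, 429.5, 423 and 467 CPM in females and 254, 242, 256 and 256 CPM in males (log2 ratio 0.74 ± 0.10, adjusted p = 2.48e-05). Hpd, of tyrosine breakdown, and Uroc1, of histidine breakdown, were higher in females by log2 ratios of 0.50 ± 0.092 and 0.52 ± 0.097. Tdo2, which opens the ring of tryptophan, was higher in males (1200 ± 101 CPM in females and 1642 ± 116 CPM in males, log2 ratio -0.45 ± 0.087, adjusted p = 0.00105). The 11 calls were 7 without female 4 or male 2 and 5 without male 3, and 5 without females 1 and 3 and male 4. In that last fit no gene was called higher in males, and the adjusted p of Tdo2 was 0.144.

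In metal handling, Hamp2, a hepcidin gene, was at 723, 1091, 925 and 977 CPM in females and 106, 57.8, 26.6 and 47.9 CPM in males. Every female was above every male by several-fold (log2 ratio 3.97 ± 0.57, adjusted p = 6.55e-04). Slc39a4, a zinc importer, was at 58.1, 56.3, 56.1 and 53.03 CPM in females and 18.96, 18.02, 13.3 and 16.1 CPM in males (log2 ratio 1.76 ± 0.14, adjusted p = 1.28e-09). Trf, transferrin, the iron carrier of plasma, was higher in females (15130 ± 732 CPM in females and 11130 ± 531 CPM in males, log2 ratio 0.44 ± 0.072). Trf is 1 of the 2 called members of the hepatocyte marker list, whose sum was also higher in females. Blvrb, a biliverdin reductase, was higher in males (log2 ratio -0.30 ± 0.080) but not without female 5 or male 3 (adjusted p 0.0621 to 0.0866). Of 35 genes 5 were higher in females and 2 in males (median 0.101), and the 5 were 3 without any 1 of females 1 and 5 and males 1, 3 and 4. The 2 higher in males were 0 without female 5 or male 3 and 1 without any 1 of females 3 and 4 and males 1, 2 and 4. The counts were 3 and 0 without the 3 outlying libraries.

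NRF2 targets and antioxidant enzymes had 2 of 28 members higher in females and 5 in males (median -0.140). Nqo1, the quinone reductase often read as an NRF2 target, was at 13.7, 12.8, 13.7 and 11.2 CPM in females and 9.21, 4.82, 7.04 and 6.19 CPM in males (log2 ratio 0.93 ± 0.20, adjusted p = 0.00375). Ephx2, the soluble epoxide hydrolase, Ugdh, which makes UDP-glucuronic acid, and Cat, catalase, were higher in males, with log2 ratios of -0.47 ± 0.077, -0.65 ± 0.12 and -0.30 ± 0.070. Without females 1 and 3 and male 4 the counts were 0 and 2. Retinoid genes had 3 of 27 members higher in females and 6 in males (median 0.083). Adh4 was at 78.5, 78.4, 91.3 and 79.2 CPM in females and 207, 216, 296 and 195 CPM in males (log2 ratio -1.48 ± 0.11, adjusted p = 3.98e-10). Aldh1a1 and Aldh1a7, retinaldehyde dehydrogenase and its close relative, were higher in males (-0.98 ± 0.16 and -0.83 ± 0.12), and Stra6l, a receptor for retinol-binding protein, in females (0.46 ± 0.082). The 6 retinoid calls higher in males were 3 without female 1 or male 3. The 3 higher in females were 1 without male 4. Without the 3 outlying libraries the retinoid counts were 1 and 3, and the adjusted p was 0.0653 for Ugdh, 0.0837 for Nqo1 and 0.127 for Cat.

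Major urinary proteins, pheromone carriers that the male liver secretes in quantity, were higher in males in 18 of 19 tested members and in females in none, with a median log2 ratio of -2.37. Mup20 was at 5.97, 8.11, 8.63 and 10.7 CPM in females and 529, 743, 895 and 1083 CPM in males (log2 ratio -6.57 ± 0.30, adjusted p = 5.94e-09). Mup7 was at 4.74, 12.8, 14.6 and 5.001 CPM in females and 239, 2859, 541 and 1938 CPM in males, with males 1 and 3 well below males 2 and 4 (log2 ratio -7.22 ± 0.83, adjusted p = 9.48e-05). Mup12, Mup21 and Mup3 had log2 ratios of -6.27 ± 0.56, -4.01 ± 0.38 and -2.17 ± 0.16. Together, Mup genes took 0.0655%, 0.153%, 0.199% and 0.112% of the counts of the females and 0.475%, 1.46%, 0.700% and 1.16% of those of the males. Every male was above every female in that share. These genes are near-identical copies on chromosome 4 (60066469 to 62150841), so single members are uncertain. The sum avoids the split among members only if reads with several matches were counted, which is not given.

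Other genes with large differences belonged to no list of metabolism. A1bg, a plasma glycoprotein of the immunoglobulin superfamily, was at 254, 54.3, 94.3 and 83.9 CPM in females and had 4 counts in the males together (log2 ratio 9.53 ± 1.09, adjusted p = 9.27e-05). Its call was lost with limma voom, with or without quality weights. Nat8f5, an acetyltransferase gene, had 1 count in the females and was at 3.97, 5.09, 2.84 and 3.597 CPM in the males, a pooled ratio of 117.5 (95% counting interval 20.6 to 4686). Pitx3, a homeobox transcription factor known from lens and midbrain, had 3 counts in the females and was at 5.96, 5.64, 6.49 and 5.47 CPM in the males. Its pooled ratio was 59.7 (95% counting interval 20.1 to 292.6), and the 4 males lay close together. The span of Pitx3 on chromosome 19 (46135281 to 46148325) overlaps that of Elovl3 (46131897 to 46135694), which was at 131 ± 16.9 CPM in males. Because the strand setting is not given, reads of Elovl3 may have been counted for Pitx3, which was not tested.

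In immunity, 3 components of the membrane attack complex, the part of complement that opens pores in target membranes, were higher in males by a wide margin. C6 was at 26.5, 15.8, 14.5 and 18.3 CPM in females and 96.2, 150.2, 164 and 154 CPM in males (log2 ratio -2.93 ± 0.26, adjusted p = 5.19e-06). C8a was at 55.1, 97.6, 71.3 and 107 CPM in females and 409.9, 546, 746 and 553 CPM in males (log2 ratio -2.77 ± 0.27, adjusted p = 1.67e-05). C9 was at 159.8, 182, 191 and 193 CPM in females and 352, 397, 534 and 390 CPM in males (log2 ratio -1.20 ± 0.12, adjusted p = 1.05e-07). The groups were separate for all 3, with male 3 the highest male and male 1 the lowest. Of the other chains, C8b was called higher in males (log2 ratio -2.11 ± 0.31, adjusted p = 7.84e-04), while C8g (0.0099 ± 0.089, adjusted p = 0.970) and Hc, the gene of C5 (-0.21 ± 0.11, adjusted p = 0.299), did not pass the test; these 3 were chosen after their values were seen. C4bp, an inhibitor of the classical pathway, was higher in males (log2 ratio -0.58 ± 0.080). Of 39 complement genes tested 6 were higher in females and 7 in males (median 0.042). The 6 included C1qa, C1qb and C1qc, named here after their values were seen, which macrophages make. The 6 calls were 3 without male 1 or male 4. They were 2 without the 3 outlying libraries.

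Cfd, complement factor D or adipsin, had 3 counts in the females and was at 13.4, 18.4, 4.19 and 13.96 CPM in the males, a pooled ratio of 125.4 (95% counting interval 42.5 to 611). Cfd is also a marker of adipocytes. The 9 adipocyte markers summed to 1978 to 2947 CPM in females and 3047 to 4382 CPM in males, with no overlap. Car3, which hepatocytes also make, gave 1974 to 2944 CPM of that sum in females and 3037 to 4357 CPM in males. Of the 9 markers 3 passed the filter, 2 of them (Cfd and Car3) were higher in males, and none was at 0 in all libraries. The part of fat tissue in the result was not tested. Without females 1 and 3 and male 4 the adjusted p of Cfd was 0.0566.

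Coagulation factors had 3 of 28 tested members higher in females and none in males (10.7% called, median 0.152). Serpinc1, antithrombin, was at 2451, 2628, 2411 and 2354 CPM in females and 1944, 1904, 1860 and 1985 CPM in males (log2 ratio 0.36 ± 0.071, adjusted p = 0.0015). Kng2, a kininogen, had a log2 ratio of 0.43 ± 0.092, and F10, clotting factor X, one of 0.28 ± 0.080. F10 lost its call without females 3 and 4 or any male (adjusted p 0.0504 to 0.0870), and without females 1 and 3 and male 4 no gene of this list passed.

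Acute phase proteins and serpins had 10 of 43 members higher in females and 6 in males (median 0.105). Serpina6, corticosteroid-binding globulin, was at 594, 951, 896 and 821 CPM in females and 451, 409.7, 362 and 353 CPM in males (log2 ratio 1.05 ± 0.12, adjusted p = 2.08e-06). Mug1, the broad protease inhibitor murinoglobulin, was at 1563, 1477, 1625 and 1411 CPM in females and 3049, 3396, 2482 and 3314 CPM in males (log2 ratio -1.01 ± 0.12, adjusted p = 1.07e-05). Serpina1e, an alpha-1-antitrypsin gene, was at 5.97, 38.98, 10.2 and 41.3 CPM in females and 437, 2016, 1474 and 1505 CPM in males. Its libraries varied widely within each sex (log2 ratio -5.80 ± 1.08, adjusted p = 0.00501, and 0.110 without females 1 and 3 and male 4). Its close copy Serpina1c was also higher in males (-0.61 ± 0.094), and Serpina3m in females (0.55 ± 0.083). Without females 1 and 3 and male 4 the counts were 5 and 3.

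Interferon-stimulated genes were higher in females wherever they passed: 11 of 56 tested members against 0, with 51 of the 56 estimates above 0 and a median log2 ratio of 0.415. Gbp3, a guanylate-binding protein, was at 28.1, 36.6, 24.2 and 28.03 CPM in females and 13.4, 17.3, 8.66 and 7.91 CPM in males (log2 ratio 1.30 ± 0.20, adjusted p = 1.15e-04). Ifi44 was at 7.73, 15.9, 7.83 and 11.5 CPM in females and 4.15, 3.71, 3.52 and 3.17 CPM in males, with female 3 the highest (log2 ratio 1.56 ± 0.28, adjusted p = 6.09e-04). Oasl2, a relative of the antiviral oligoadenylate synthetases, had a log2 ratio of 1.004 ± 0.24, and Isg15, the ubiquitin-like modifier, one of 0.91 ± 0.22, lost without female 5 (adjusted p = 0.0737). The groups of Isg15 overlapped. The 11 calls were 5 without female 5, 6 without female 3 or male 3, 7 without male 4, and 3 without females 1 and 3 and male 4. In antigen presentation 27 of 28 estimates were above 0 (median 0.294), but 1 gene passed (3.57%, against 7.43% of all autosomal genes). It was Cd1d1, which presents lipids (315 ± 21.5 CPM in females and 244 ± 7.498 CPM in males, log2 ratio 0.37 ± 0.082, adjusted p = 0.00434). The number called higher in females was 3 without female 1 and 2 without female 4 or male 2. Without female 5 a gene passed in favour of males. The log2 ratio of Oasl2 was 0.626 without the 3 outlying libraries and its call was lost (adjusted p = 0.303).

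Markers of other cells were read beside these genes. The 15 Kupffer cell and macrophage markers summed to 906, 556, 643 and 762 CPM in females and 474, 590, 460 and 428 CPM in males, so female 3 lay below male 2. Of 11 tested autosomal markers 3 were higher in females and none in males, with a median of 0.575 (1 called without male 3 or male 4), and Trem2 was at 0 in every library. The sums of the T and NK cell list were 13.4 to 17.3 CPM in females and 5.04 to 13.6 CPM in males, with Trac at 0, and 2 of its 16 markers passed the filter. Neutrophil markers summed to at most 5.93 CPM in any library. Stellate cell and fibroblast markers summed to 436 to 489 CPM in females and 313 to 409 CPM in males, with no overlap, and 2 of 10 tested markers (Ecm1 and Lum) were higher in females (1 without any 1 of females 3, 4 and 5 and males 2 and 3). Red cell markers summed to 191.5 to 290.8 CPM in females and 315.1 to 463.9 CPM in males, with no overlap, and none was at 0 in all libraries. The 1 called red cell marker, X-linked Alas2 of heme synthesis, was at 15.3 to 19.3 CPM in females and 87.03 to 117 CPM in males, while the 4 globin genes tested did not pass and overlapped. Pancreatic acinar markers summed to 12.6 to 18.02 CPM in females and 19.1 to 56.7 CPM in males, with no overlap, although 6 of the 10, among them Prss1, Cpa1 and Pnlip, were at 0 in every library. Cela1, at 11.1 to 16.2 CPM in females and 15.9 to 31.7 CPM in males, gave most of that sum in each library (its call was lost without any 1 of females 1, 3 and 4 and males 2 and 4), and male 4 also held 22.9 CPM of Ctrb1. Other lists had single high libraries: B and plasma cell markers summed to 101.5 CPM in female 3 and 70.5 CPM in male 4 against 15.3 to 25.5 CPM in the other 6, and cholangiocyte markers to 114.4 CPM in male 4 against 35.2 to 66.3 CPM in the other 7. The part of these cells in the differences of immune genes was not tested.

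Chemokines, cytokines and their receptors had 3 of 51 members higher in females and 2 in males (9.8% called, median 0.187). Ccl9, a chemokine for myeloid cells, was at 61.8, 94.6, 65.4 and 81.4 CPM in females and 40.6, 35.9, 35.04 and 39.7 CPM in males (log2 ratio 1.01 ± 0.12, adjusted p = 2.17e-06). Il15, a cytokine for NK cells, was at 2.46, 4.83, 2.07 and 2.08 CPM in females and 1.26, 0.963, 0.812 and 0.576 CPM in males (log2 ratio 1.64 ± 0.38, adjusted p = 0.00667). Csf1r, the macrophage growth factor receptor, had a log2 ratio of 0.60 ± 0.16 and lost its call without male 3 or male 4 (adjusted p 0.0856 to 0.0868). Il1rap, a subunit of the interleukin-1 receptor, was higher in males (-0.32 ± 0.086) but not without any 1 of females 1 and 4 and males 2 and 4 (adjusted p 0.0502 to 0.0904). In pattern recognition 2 of 40 members were higher in females and 1 in males (median 0.171). That called share, 7.5%, was near the 7.43% of all autosomal genes. Tlr5, the flagellin receptor, was higher in males (8.89 ± 2.46 CPM in females and 16.4 ± 2.96 CPM in males, log2 ratio -0.88 ± 0.20, adjusted p = 0.00639). Lbp, which hands endotoxin to its receptor, was higher in females (0.73 ± 0.17, adjusted p = 0.0132), and so was Gsdmd, the pore former of pyroptosis (0.50 ± 0.13), the latter not without female 3, male 1 or male 4 (adjusted p 0.0565 to 0.0716). The 2 chemokine list calls higher in males were 0 without male 2 or male 4 and 1 without any 1 of females 1, 4 and 5 and male 3, and the 2 pattern recognition calls higher in females were 1 without female 3, male 1 or male 4. Without the 3 outlying libraries 1 and 1 genes of the chemokine list were called, and no gene of pattern recognition was called higher in females. In that fit the log2 ratio of Il15, whose highest library is female 3, was 1.05 (adjusted p = 0.249), and the calls of Csf1r, Il1rap, Lbp and Gsdmd were lost (adjusted p 0.166, 0.262, 0.259 and 0.238).

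**Figure D3:**
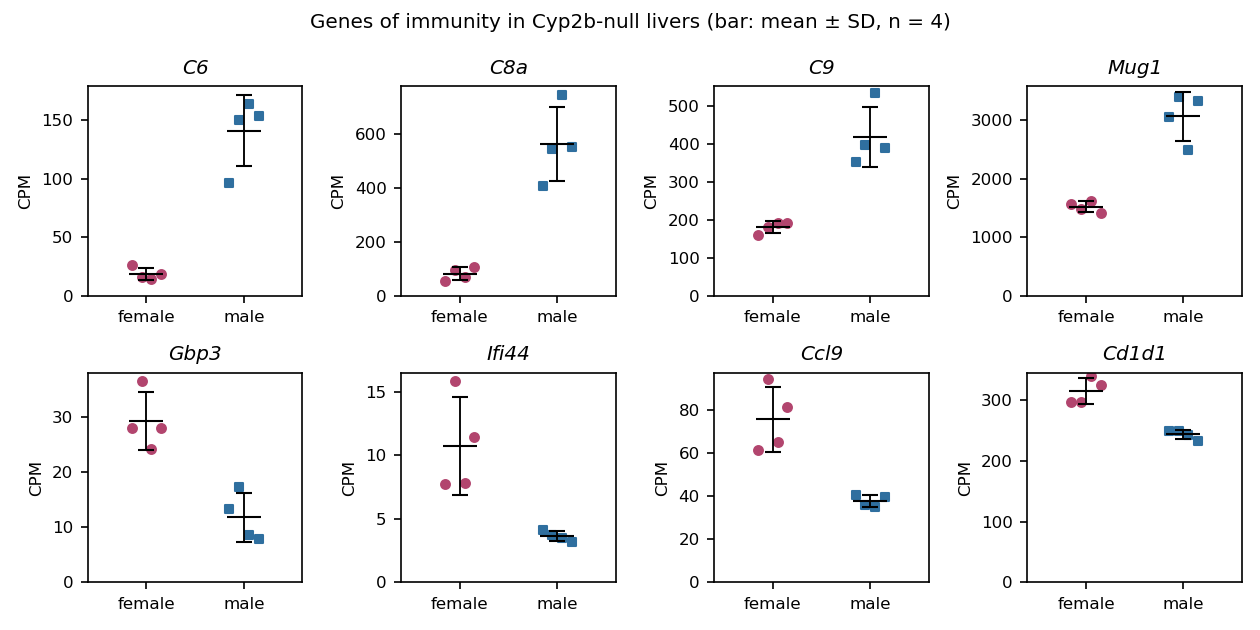
Level of 8 genes of immunity in each Cyp2b-null library (y axis, CPM from 0; circles, females; squares, males; black bars, mean ± SD, n = 4). C6, C8a, C9 and Mug1 are higher in males, and Gbp3, Ifi44, Ccl9 and Cd1d1 in females. The 8 were picked among called genes, and their groups do not overlap. Of the 946 called autosomal genes 838 had no overlap, as did 12.3% of all autosomal genes tested. The groups of Isg15, called but not shown, overlapped.

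In signalling, the list of growth hormone, prolactin and STAT5 signalling had 5 of 28 tested genes called, 4 higher in females and 1 in males (median 0.154). Prlr, the prolactin receptor, was at 448, 386, 412 and 359 CPM in females and 175, 155, 155 and 132 CPM in males (log2 ratio 1.38 ± 0.099, adjusted p = 3.46e-10). Pim1, a kinase gene that STAT5 induces, was at 8.78, 14.2, 11.1 and 6.98 CPM in females and 22.8, 29.3, 22.2 and 25.2 CPM in males (log2 ratio -1.29 ± 0.17, adjusted p = 1.18e-05). Igfbp3, a carrier of insulin-like growth factors, was higher in females (15.8 ± 3.31 CPM in females and 8.89 ± 2.23 CPM in males, log2 ratio 0.82 ± 0.18). Stat5b itself was at 79.7, 77.5, 73.1 and 62.9 CPM in females and 66.4, 46.6, 47.4 and 55.3 CPM in males. Male 1 lay above female 5 (log2 ratio 0.44 ± 0.12, adjusted p = 0.018), and the call was lost without male 2 or male 3 (adjusted p 0.0756 to 0.0760). The 4 calls higher in females were 2 without male 2 or male 3. The growth hormone receptor Ghr (log2 ratio -0.17 ± 0.078, adjusted p = 0.233) and Igf1, its main endocrine target gene (-0.038 ± 0.10, adjusted p = 0.892), did not pass and were chosen after their values were seen. The growth hormone list had 2 calls higher in females without the 3 outlying libraries, where the adjusted p of Stat5b was 0.266.

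Of 30 transcription factors linked to sex-dependent liver expression, 4 were higher in females and 2 in males (median 0.0060). Cux2 was at 43.02, 63.3, 22.8 and 14.4 CPM in females and 0.181, 0, 0 and 0.7195 CPM in males (log2 ratio 7.22 ± 0.82, adjusted p = 7.89e-05). The females varied widely, and male 4 held 5 of the 6 male counts. Trim24, a co-regulator of nuclear receptors, was at 71.1, 85.8, 67.01 and 59.6 CPM in females and 25.8, 30.1, 25.03 and 20.1 CPM in males (log2 ratio 1.48 ± 0.15, adjusted p = 9.52e-07). Esr1, estrogen receptor alpha, was at 46.5, 38.4, 40.6 and 43.1 CPM in females and 14.99, 11.01, 15.8 and 8.49 CPM in males (log2 ratio 1.75 ± 0.17, adjusted p = 2.90e-07). Bcl6, read after its values were seen, was at 10.9, 18.7, 10.8 and 11.8 CPM in females and 22.4, 11.6, 13.1 and 12.7 CPM in males, and did not pass (log2 ratio -0.19 ± 0.48, adjusted p = 0.885). Cebpb, a factor of the acute phase and of fat cell formation, was higher in males (-0.58 ± 0.13, adjusted p = 0.00639). The 2 calls higher in males were 3 without female 4, and 1 without any 1 of females 1, 3 and 5 and males 1, 2 and 4 or without the 3 outlying libraries. Of 40 nuclear receptors 3 were higher in females and 3 in males (median -0.060), and the 3 higher in females were 1 without any 1 of female 1 and males 1, 2 and 4 or without the 3 outlying libraries. Pparg, the regulator of fat storage, was at 16.5, 12.6, 12.7 and 9.79 CPM in females and 22.2, 26, 16.9 and 24.5 CPM in males (log2 ratio -0.81 ± 0.17, adjusted p = 0.00291). Nr1h4, the bile acid receptor FXR, was higher in males (98.95 ± 3.19 CPM in females and 133 ± 15.8 CPM in males, log2 ratio -0.43 ± 0.099), as was Rxra, partner of many of these receptors (-0.30 ± 0.083), though not without any 1 of females 1, 3 and 5 and males 2 and 3 (adjusted p 0.0540 to 0.112).

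Egfr, the receptor of epidermal growth factor, was at 46.2, 89.3, 75.4 and 64.9 CPM in females and 358, 417, 433 and 413 CPM in males. The groups were far apart (log2 ratio -2.55 ± 0.22, adjusted p = 2.92e-06). Of 46 genes of EGF receptor and ERK signalling 4 were higher in females and 2 in males (median -0.046). Spred1, an inhibitor of the RAS pathway, was higher in females (34.03 ± 3.495 CPM in females and 21.8 ± 1.63 CPM in males, log2 ratio 0.64 ± 0.13), and Hgfac, the protease that activates hepatocyte growth factor, too (0.45 ± 0.093). Map2k1, the kinase MEK1, was higher in males (-0.40 ± 0.10) but not without female 1, female 4 or male 3 (adjusted p 0.0596 to 0.110). The 4 calls higher in females were 2 without any 1 of females 4 and 5 and males 2 and 3. The 2 higher in males were 1 without female 1, female 4, male 3 or the 3 outlying libraries.

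Insulin signalling, the FOXO1 targets and AMPK had 2 of 45 genes higher in females and 1 in males, 6.67% against 7.43% of all autosomal genes. Irs1, the insulin receptor substrate, was at 36.5, 49.4, 55.03 and 56.4 CPM in females and 37.6, 25.7, 23.3 and 25.6 CPM in males. Female 1 lay just below male 1, so the groups overlapped (log2 ratio 0.83 ± 0.15, adjusted p = 6.50e-04). Enpp1, a membrane phosphodiesterase that inhibits the insulin receptor, was at 62.7, 63.3, 65.7 and 53.2 CPM in females and 40.4, 40.3, 41.9 and 38.3 CPM in males (log2 ratio 0.60 ± 0.095, adjusted p = 9.60e-05). Prkaa2, a catalytic subunit of AMPK, was higher in males (-0.44 ± 0.095, adjusted p = 0.00345). Calls higher in males numbered 2 without female 1 and 0 without the 3 outlying libraries, where the adjusted p of Prkaa2 was 0.109.

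WNT and pericentral genes (3 of 37 higher in females, 2 in males, median 0.075) included Lect2 (0.45 ± 0.0996) and the WNT inhibitor Notum (0.58 ± 0.13) on the female side. Cyp27a1, a sterol hydroxylase, was higher in males (-0.37 ± 0.089), and Slc1a4, an amino acid transporter, in females (1.43 ± 0.34), the latter not without male 2 (adjusted p = 0.0533). The groups of Lect2 and of Slc1a4 overlapped. Of 52 genes of TGF beta, BMP and Notch signalling 2 were higher in females and 1 in males (median 0.057). That called share, 5.77%, was below the 7.43% of all autosomal genes. Smad9, a BMP-regulated SMAD, was at 3.16, 6.55, 3.34 and 2.29 CPM in females and 10.7, 16.2, 13.4 and 10.1 CPM in males (log2 ratio -1.75 ± 0.32, adjusted p = 9.09e-04). Smad6, the inhibitory SMAD of that pathway, was higher in females (11.97 ± 2.58 CPM in females and 6.305 ± 1.03 CPM in males, log2 ratio 0.92 ± 0.22, adjusted p = 0.00727). Bmp5 was called higher in females (0.48 ± 0.15), and that call was lost without any 1 library other than male 4 (adjusted p 0.0644 to 0.161). The 2 WNT list calls higher in males were 1 without any 1 of females 1, 4 and 5 and males 2, 3 and 4. In the list of TGF beta, BMP and Notch signalling, calls higher in females numbered 1 without female 1, female 5 or male 2, and calls higher in males 2 without male 4. Without the 3 outlying libraries 1 WNT list gene was called higher in males and 1 gene of the other list higher in females, and the calls of Notum and Smad6 were lost (adjusted p 0.112 and 0.168).

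Among 37 secreted regulators 7 were higher in females and 3 in males (median 0.151). Agt, angiotensinogen, was at 838, 921, 974 and 852 CPM in females and 618, 574, 574 and 574 CPM in males (log2 ratio 0.62 ± 0.078, adjusted p = 4.32e-06), and Bche, butyrylcholinesterase, was also higher in females (290.4 ± 13.8 CPM in females and 196 ± 27.7 CPM in males, log2 ratio 0.57 ± 0.095). Of 56 genes of G protein-coupled receptors and cAMP signalling 3 were higher in females and 2 in males (median 0.085). That called share, 8.93%, was near the 7.43% of all autosomal genes. Avpr1a, the vasopressin receptor of hepatocytes, was at 37.2, 37.7, 30.97 and 40.1 CPM in females and 22.4, 23.7, 24.6 and 18.3 CPM in males (log2 ratio 0.71 ± 0.16, adjusted p = 0.00738). Adcy6, an adenylyl cyclase, was higher in males (24.7 ± 1.13 CPM in females and 44.1 ± 2.99 CPM in males, log2 ratio -0.84 ± 0.12, adjusted p = 4.11e-05). Pde9a, a cGMP phosphodiesterase, was higher in females (0.56 ± 0.13) and the ADP receptor P2ry1 in males (-0.68 ± 0.18), the latter not without female 3 or male 4 (adjusted p 0.0608 to 0.0629). The 2 receptor and cAMP calls higher in males were 1 without female 3 or male 4. Without the 3 outlying libraries 1 secreted regulator was called higher in males and 1 gene of the receptor and cAMP list in each direction, and the adjusted p was 0.17 for Avpr1a and 0.32 for P2ry1.

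Clock genes had 4 of 25 members higher in females and 1 in males (median -0.047). Bhlhe41, a repressor of clock output, was at 0, 0.7796, 0.576 and 0.625 CPM in females and 3.25, 4.68, 2.84 and 5.04 CPM in males (log2 ratio -2.89 ± 0.42, adjusted p = 4.06e-05). Fbxl21, which controls cryptochrome turnover, was higher in females (0.88 ± 0.21), as were Cry1 (0.88 ± 0.24) and Bhlhe40 (0.53 ± 0.14). Cry1 lost its call without female 1 or males 1, 3 and 4 (adjusted p 0.0560 to 0.0879) and Bhlhe40 without females 3 and 5 or males 1 and 3 (adjusted p 0.0642 to 0.0842). The 4 calls higher in females were 1 without male 3, 2 without any 1 of females 1 and 5 and males 1 and 4, and 0 without females 1 and 3 and male 4. Calls higher in males numbered 2 without female 3 or male 1. The groups of Fbxl21 overlapped, and its call was lost without the 3 outlying libraries (adjusted p = 0.259). The hour of collection is not given in the labels.

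**Figure D4:**
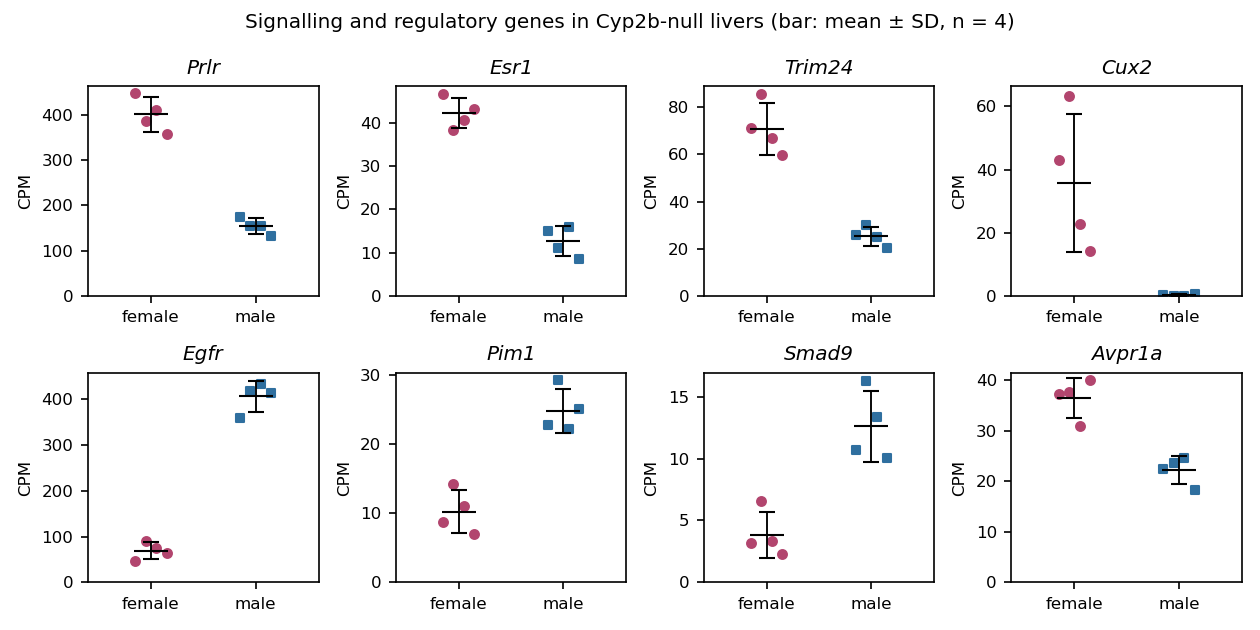
Level of 8 signalling and regulatory genes in each Cyp2b-null library (y axis, CPM from 0; circles, females; squares, males; black bars, mean ± SD, n = 4). Prlr, Esr1, Trim24, Cux2 and Avpr1a are higher in females and Egfr, Pim1 and Smad9 in males. The 8 were picked among called genes, and their groups do not overlap. Of the 946 called autosomal genes 838 had no overlap, as did 12.3% of all autosomal genes tested. The groups of Stat5b and Irs1, called but not shown, overlapped.

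The same sex contrast was read in the hCYP2B6-Tg livers, whose 8 libraries are not compared in the Cyp2b-null contrast but entered the same fit, with its filter and its estimate of the spread. A fit of the 8 Cyp2b-null libraries alone called 774 autosomal genes, 729 of them among the 946. Named genes that lost their call in that fit were Sult2a3, Tkfc, Aldoa, Cox7a2, Csf1r, Rxra, Map2k1, Slc1a4 and Bmp5. In hCYP2B6-Tg livers, in the fit of all 16 libraries, 1278 autosomal genes passed the test, 579 higher in females (4.55%) and 699 higher in males (5.49%). Of the 946 genes called in Cyp2b-null livers, 886 had the same sign in hCYP2B6-Tg livers (93.7%), 557 were also called with that sign, and 1 was called with the opposite sign. That gene, named after its values were seen, was E2f8, a repressor of the cell cycle (log2 ratios -0.90 and 1.01, adjusted p of the difference 0.0539). The 557 were 58.9% of the Cyp2b-null calls and 43.6% of the hCYP2B6-Tg calls. Across the 946 genes, which are not independent, Pearson's r of the log2 ratios was 0.959, and across all 12739 it was 0.807. Sult2a2 had log2 ratios of 12.42 in Cyp2b-null and 12.43 in hCYP2B6-Tg livers, Trim24 1.48 and 1.49, Mup20 -6.57 and -6.47, and C6 -2.93 and -2.90. For Egfr they were -2.55 and -0.75, and the test of the difference gave an adjusted p of 0.0608. For Il15 they were 1.64 and -0.31 (adjusted p of the difference 0.297), for Smad9 -1.75 and -0.23 (0.363), and for Fads1 0.40 and -0.12 (0.448).

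The sex effect differed between the genotypes in 5 of 13470 genes (0.0371%; 1017 at an unadjusted p under 0.05, and 16 with DESeq2). In Pim1, the level was 10.2 ± 3.11 CPM in females and 24.9 ± 3.24 CPM in males in Cyp2b-null livers and 14.9 ± 1.83 CPM in females and 13.7 ± 2.302 CPM in males in hCYP2B6-Tg livers. Ccdc141, which codes for a coiled-coil protein, was at 17 ± 3.29 CPM in females and 7.11 ± 1.57 CPM in males against 12.1 ± 0.756 CPM in females and 13.01 ± 1.82 CPM in males, and Rasgef1b, a RAS-family exchange factor, at 14.8 ± 3.54 CPM in females and 6.02 ± 1.28 CPM in males against 12.6 ± 0.528 CPM in females and 12.8 ± 1.07 CPM in males. All 3 passed the sex test in Cyp2b-null livers and not in hCYP2B6-Tg livers. Wipf3, an actin regulator, passed in hCYP2B6-Tg livers alone, with log2 ratios of 0.52 and -0.83, and Ablim3, an actin-binding protein, in Cyp2b-null livers alone, with -0.66 and 0.41. The sex call of Ablim3 was lost without the 3 outlying libraries (adjusted p = 0.133). The adjusted p of the differences were 0.036 (Ccdc141), 0.036 (Pim1), 0.036 (Wipf3), 0.036 (Rasgef1b) and 0.0491 (Ablim3). No gene passed without any 1 of Cyp2b-null female 4 or males 2, 3 and 4, or of hCYP2B6-Tg females 2, 4 and 5 or males 3 and 4. Without Cyp2b-null female 1 there were 3 and without hCYP2B6-Tg female 1 there were 19.

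**Figure D5:**
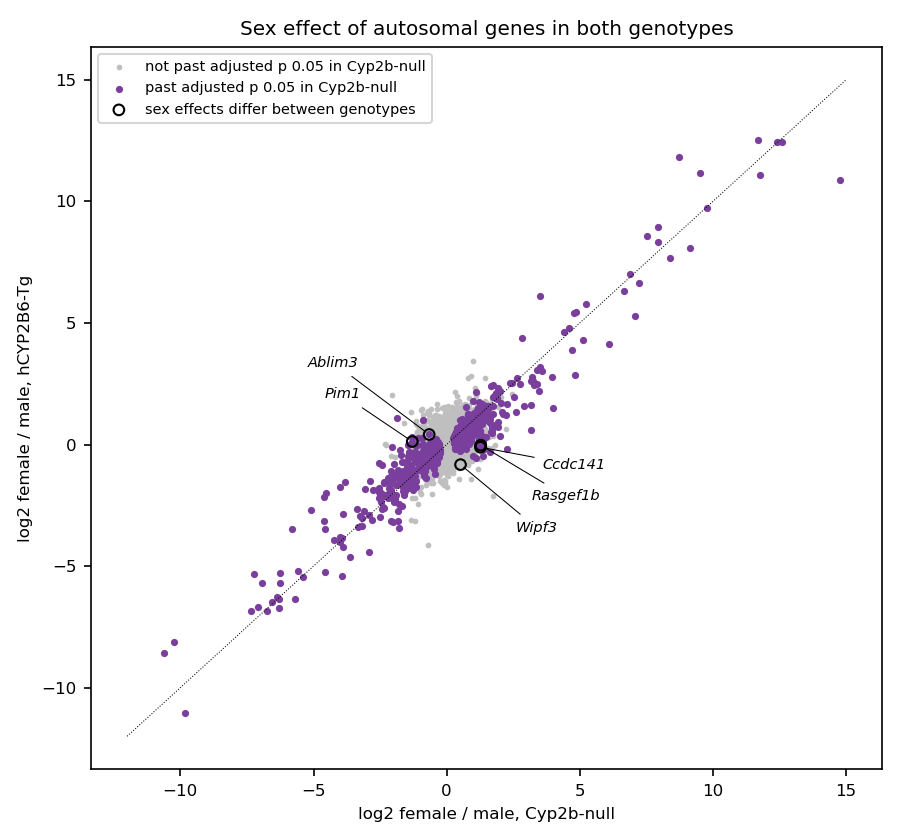
Log2 ratio of female over male for each autosomal gene tested in Cyp2b-null livers (x axis) and hCYP2B6-Tg livers (y axis); violet, the 946 genes called in Cyp2b-null livers; rings, the 5 genes whose sex effects differed between the genotypes; dotted line, equal ratios. Most called genes lie near the dotted line, and the 5 ringed genes lie near 0 on one axis or on opposite sides of 0.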

How the data were processed

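RNA of whole liver was sequenced in 16 libraries, 4 for each genotype and sex, and groups were taken from the library titles. The authors deposited whole-number read counts per gene symbol. Tools listed in the submitters' processing notes were GSNAP, Subread, Trimmomatic, FastQC and edgeR, with build GRCm38.p6. For strand setting and reads with several matches, settings were not given in the sources used here. From the counts, edgeR 4.0.16 (R 4.3.3) was used with filterByExpr, TMM scaling and a robust quasi-likelihood F test on 1 fit of all 16 libraries in 4 groups, two-sided, with Benjamini-Hochberg adjustment over 13470 genes at 0.05. Each standard error was computed from the F statistic. CPM uses scaled totals, and mean ± SD is over n = 4. Alternatives used limma 3.58.1, DESeq2 1.42.0, other scalings and filters, and libraries left out. Ratios of pooled counts carry 95% intervals for counting error only, and a group with 0 counts was set at 3 counts. The edgeR sex contrast of Cyp2b-null livers was also run on simulated counts with known changes. The other results were not tried in that way.

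The 37 gene lists and 12 lists of cell type markers held 1513 symbols, of which 4 had no row. Of 1382 autosomal genes of the 37 lists 1214 were tested, and 286 were called. Members and lists were chosen with earlier results of these data known, so counts per list are descriptions. Named genes were the 12 largest in each direction at a mean of at least 1 CPM with no overlap of the libraries, up to 4 members per list with the smallest adjusted p, the genes whose sex effect differed between genotypes, and a few said to be chosen otherwise. One gene that meets this rule is not reported here. Chromosomes and start regions are from RefSeq for GRCm38.p6. Same-numbered females and males did not deviate together (r = 0.00726, -0.107 and -0.0427), so the numbers were not used as pairs.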

Additional observations from a re-analysis of the deposited data

Results flagged for a closer look

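Single libraries stood apart from the other 3 of their sex in 14 of 304 groups of 4 libraries examined for the named genes, by Dixon's test at the 95% level; chance gives about 1 in 20. In the males these were male 3 for Cyp4a12a (44.91 CPM, the others 83.6 to 88.93), Ugt1a9 (12.45 CPM, the others 11.22 to 11.42), Map2k1 (59.12 CPM, the others 45.04 to 47.19) and Bche (154.4 CPM, the others 206.9 to 211.8). Male 4 stood apart for Slc22a28 (21.15 CPM, the others 15.42 to 16.1) and F10 (371.0 CPM, the others 387 to 390), and male 1 for Sort1 (13.54 CPM, the others 19.81 to 20.15) and Agt (617.9 CPM, the others 573.7 to 574.4). In the females these were female 1 for Hpd (2264 CPM, the others 3091 to 3147), female 3 for Stra6l (197.5 CPM, the others 225.3 to 227.7) and Il15 (4.833 CPM, the others 2.072 to 2.458), and female 4 for Adh4 (91.3 CPM, the others 78.43 to 79.18), Rxra (455.6 CPM, the others 389 to 397.6) and Cyp2b13 (0.4605 CPM, which is 4 counts, the others 0).

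The sex effect differed between Cyp2b-null and hCYP2B6-Tg livers in 5 genes by edgeR's test of the difference. The Cyp2b-null log2 ratio minus the hCYP2B6-Tg one was 1.38 for Ccdc141, -1.41 for Pim1, 1.35 for Wipf3, 1.31 for Rasgef1b and -1.07 for Ablim3.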

How the results depend on the processing

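The number of autosomal genes called between the sexes of Cyp2b-null livers, 946, was 903 to 1094 with other scalings, other filters, DESeq2, limma voom or without ribosomal RNA rows, 774 in a fit of the 8 Cyp2b-null libraries alone and 694 to 884 with 1 library left out. It was 207 when a fold of at least 1.5 was required, 460 without females 1 and 3 and male 4 (an alternative added after the data had been seen; fewer samples), and 542 with the replicate number as a block, a pairing that the labels do not state. Of the 946, 483 were called with the block and 419 without the 3 libraries. The 5 genes whose sex effect differed between genotypes were 36 with no filter, 16 with DESeq2, 9 with limma voom and quality weights, 2 with the replicate block, and 0 to 19 with 1 library left out; the cause was not tested. For single named genes, 2695 of 2960 values under an alternative kept direction and call, 265 values of 92 genes kept direction and lost the call, and none reversed. The other scalings moved the median log2 ratio of all genes by at most 0.0126, and leaving out the filter moved it by 0.0145. At these depths a count of 0 in 1 library allows 0.310 to 0.537 CPM, so absence of low-abundance genes cannot be shown.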
